A study of Mus musculus with 4 samples.

Results

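The 9 genes described here were grouped under metal ions, haem and iron: the metallothioneins Mt1 and Mt2, the enzymes Hmox1 and Blvrb, the ferritin subunits Fth1 and Ftl1, and the membrane proteins Slc40a1, Slc11a1 and Tfrc. They were picked by gene symbol, with earlier results of these data known. All 9 were among the 32285 genes of the deposited count matrices and had counts in every library. Levels were read in cells sorted from mouse brain 3 days after cardiac arrest (CA) or sham surgery, and were described by library and by cell class. Barcodes whose haemoglobin genes held 1% or more of the counts were left out.

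Wild-type C57Bl/6 mice were either aged (18 to 20 months) or young (3 to 6 months). The 4 groups were aged CA, young CA, aged sham and young sham. CA was brought on with potassium chloride and followed by resuscitation, and sham mice had the surgery alone. Perfused brains were dissociated, enriched for immune cells on Percoll and sorted for CD45, a surface protein of leukocytes, and droplet-based 3′ libraries were sequenced. Every group is represented by 1 library, for which 3 mice were pooled. There is thus no spread between replicates and no p-value, and each interval below is a 95% interval that covers counting error only. Levels are counts of unique molecular identifiers (UMIs) summed over a cell class, divided by all UMIs of that class and scaled to CPM, counts at a common total for every class and library. A ratio was called when it reached 2-fold in a gene with at least 20 UMIs over both libraries.

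Metallothioneins are small cysteine-rich proteins that bind zinc and copper, and their genes are switched on by metals through the factor MTF1 and also by glucocorticoids and inflammatory signals. Blvrb encodes a reductase of flavins and of some forms of biliverdin. Haem taken up by macrophages is opened by haem oxygenase, encoded by Hmox1, which releases iron, carbon monoxide and biliverdin. The freed iron is stored in shells of heavy (Fth1) and light (Ftl1) ferritin chains or leaves the cell through ferroportin (Slc40a1), the known iron exporter of mammals. Slc11a1 carries divalent metal out of the phagosomes of macrophages, and the transferrin receptor (Tfrc) brings in iron bound to transferrin.

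Iron itself acts on several of these transcripts through iron-responsive elements, short hairpins bound by iron regulatory proteins. In a 5′ untranslated region the hairpin blocks translation when iron is low, and in the 3′ region of Tfrc it protects the mRNA. A search of GENCODE M21 transcripts for the hairpin (a C, 5 bases, the loop CAGTGN, and 5 bases that pair with the first 5, G-T pairs allowed, read on the transcript's strand) found 1 in the 5′ region of each of Fth1, Ftl1 and Slc40a1 and 4 in the 3′ region of Tfrc. The other 5 members had none. The hairpin was in 4 of 9 annotated transcripts of Fth1, 2 of 6 of Ftl1 and 1 of 8 of Slc40a1. Each of the 4 in Tfrc was in 1 of 7 transcripts. Which transcripts were expressed here was not tested. The hairpin was found in the 5′ region of 0.147% and in the 3′ region of 0.684% of annotated genes. The elements are shown because they separate the 4 iron genes from the rest of the set, with the bulged C and the loop in capitals (for Tfrc, 1 of its 4):
Fth1, chromosome 19: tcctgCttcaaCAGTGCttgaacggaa
Ftl1, chromosome 7: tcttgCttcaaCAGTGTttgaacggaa
Slc40a1, chromosome 1: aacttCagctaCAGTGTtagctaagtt
Tfrc, chromosome 16: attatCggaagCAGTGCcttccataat

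Mt1 and Mt2 lie side by side on chromosome 8 of GRCm38, Mt2 at chr8:94172664-94173568 and Mt1 at chr8:94179082-94180327, both protein-coding and on the plus strand in GENCODE M21. RefSeq promoter sequences (GRCm38.p6) were at hand for 7 of the 9 members, all but Hmox1 and Slc40a1. The 7-base core of the metal response element was searched as TGCACNC and TGCGCNC on both strands. It occurred 3 times in the 250 bases before the RefSeq start of Mt2 and 1 time before that of Mt1, and 2 times for Tfrc, while Blvrb, Fth1, Ftl1 and Slc11a1 had no match. At least 1 match was present in 23.8% of the 27025 genes of the table and at least 3 in 1.46%. No match in Mt1 or Mt2 overlapped another. The Mt1 stretch shown stops after 243 bases, before the first annotated transcript. The latest annotated start is 94179241 for Mt1, against the RefSeq start at 94179089, and 94172860 for Mt2, against 94172618. Bases after the RefSeq start were not searched, so the counts of matches hold for the 250-base window only. All 3 GENCODE transcripts of Mt1 and both of Mt2 start downstream of the stretches shown. They are printed on the plus strand, with matches in capitals:
Mt2, chr8:94172368-94172617: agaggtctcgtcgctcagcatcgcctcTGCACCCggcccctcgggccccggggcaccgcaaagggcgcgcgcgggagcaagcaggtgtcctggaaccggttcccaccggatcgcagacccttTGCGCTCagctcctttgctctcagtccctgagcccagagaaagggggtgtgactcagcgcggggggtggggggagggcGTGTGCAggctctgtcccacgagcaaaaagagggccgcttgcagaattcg
Mt1, chr8:94178839-94179081: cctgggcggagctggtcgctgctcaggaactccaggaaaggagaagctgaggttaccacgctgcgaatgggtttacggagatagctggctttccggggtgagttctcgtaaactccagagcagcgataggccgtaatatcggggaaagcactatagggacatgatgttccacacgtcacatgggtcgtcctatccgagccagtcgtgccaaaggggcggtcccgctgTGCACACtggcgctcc

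The other members are protein-coding genes at chr8:75093621-75100589 (Hmox1), chr7:27447978-27466144 (Blvrb), chr19:9980598-9985098 (Fth1), chr7:45457944-45459884 (Ftl1), chr1:45908068-45926523 (Slc40a1), chr1:74375195-74386062 (Slc11a1) and chr16:32608920-32632794 (Tfrc). Ftl1 has a listed pseudogene copy, Ftl1-ps1, which stood at 13.7 to 27.8 CPM in microglia against 644 to 1759 CPM for Ftl1. How reads were split between them is not given in the sources used here.

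After filtering, 5611 aged CA, 9310 young CA, 6980 aged sham and 8120 young sham barcodes were kept. Their median depth was 10308, 9569, 3324 and 5947 UMIs in the same order. Cell classes were gated on marker genes that include none of the 9. Gated microglia numbered 4649, 8403, 5210 and 7544 cells, and all 12 microglial markers were detected in them in every library, with a summed level of 9883, 15054, 20362 and 24183 CPM. Aged sham stood apart. It held 103 barcodes over the haemoglobin limit, against 3 in aged CA and 0 in both young libraries, and 14.3% of its kept barcodes carried markers of more than 1 class, against 2.49% to 2.73% elsewhere. Its microglia also held more neutrophil marker RNA (381 CPM, against 13.2 to 53.2) and choroid plexus marker RNA (464 CPM, against 0.966 to 138). In microglia and border-associated macrophages, the ratios given to aged sham are also given with young sham in its place where this changes a call or moves the value by over 1.5 times. In aged CA 902 barcodes were removed for a high mitochondrial share, against 162 to 663 in the other libraries. Of its kept barcodes 4.99% were given no class, against 0.505% to 0.924% in the others. What this left out of the aged CA microglia was not tested. Any 2 libraries shared 15 to 32 cell barcodes, at most 0.416% of the smaller library.

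In microglia, the resident macrophages of the brain, both metallothioneins, Hmox1 and Fth1 were higher after CA at both ages and Slc40a1 was lower, while Blvrb, Slc11a1 and Tfrc stayed within 2-fold. Ftl1 was called higher in young CA only. In the young comparison 5 of 9 members were called higher and 1 lower, where 8.14% of 17736 genes were called higher and 9.57% lower. In the aged comparison 4 of 9 were called higher and 1 lower, where 8.3% of 17190 genes were called higher and 18.9% lower. The median log2 ratio of the 9 members was 1.21 in young and 0.96 in aged microglia, against -0.15 and -0.10 for all genes tested. As the members were chosen with earlier results of these data known, setting them beside all genes is a description and no test of the set.

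**Figure D1:**
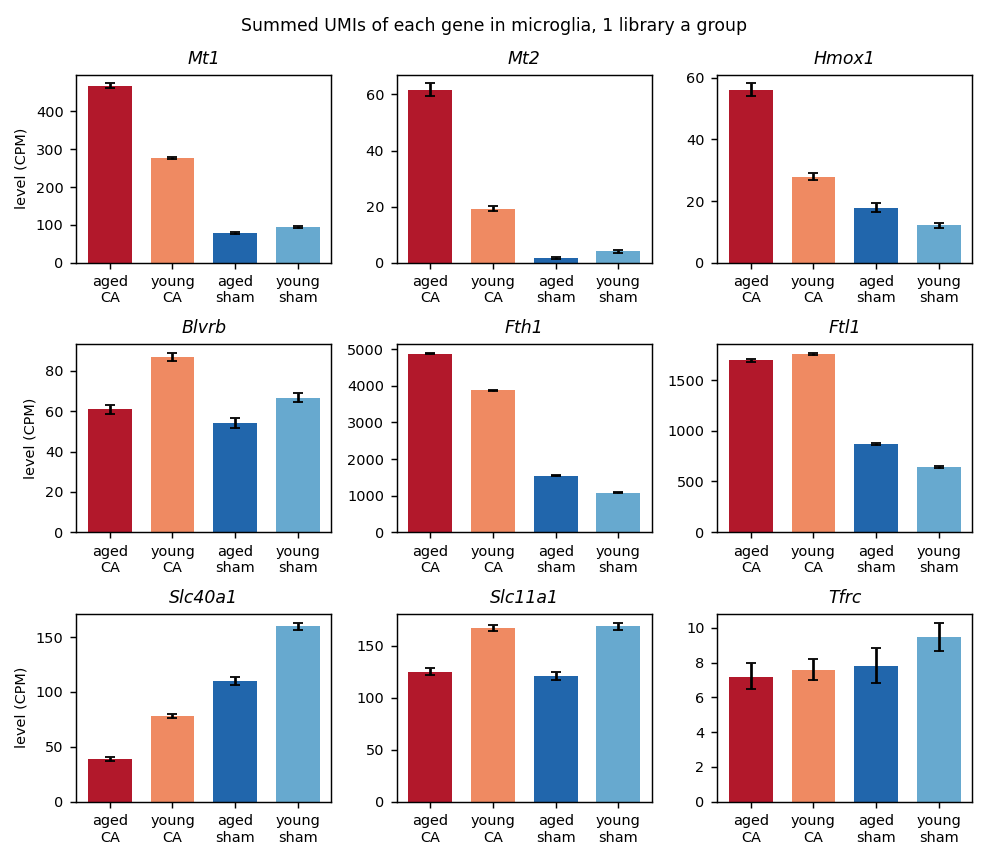
Level of each of the 9 genes in gated microglia (CPM, linear axis from 0) in aged CA, young CA, aged sham and young sham. Bars are summed UMIs of 1 library each and error bars are exact Poisson 95% intervals. Mt1, Mt2, Hmox1, Fth1 and Ftl1 stand higher in both CA bars than in both sham bars, and Slc40a1 lower.

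Mt1 stood at 468 CPM in aged CA and 277 CPM in young CA microglia, against 78.0 CPM in aged sham and 95.2 CPM in young sham. Both CA libraries lay above both sham libraries, and the order of the ages differed between CA and sham. The ratio of CA to sham was 6.00 in aged (5.76 to 6.26) and 2.91 in young (2.82 to 2.99). Mt2 stood at 61.7 CPM in aged CA and 19.2 CPM in young CA, against 1.60 CPM in aged sham and 3.996 CPM in young sham. Its ratio was 38.5 in aged (29.1 to 52.0) and 4.79 in young (4.17 to 5.53). The aged sham level rests on 50 UMIs, and with young sham in its place the aged CA ratio of Mt2 was 15.4. With 10 CPM added to both levels it was 6.18 in aged and 2.08 in young.

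Since the CA libraries were deeper, each cell was also thinned to 1000 UMIs, which left out 49 aged CA, 136 young CA, 584 aged sham and 498 young sham microglia. Mt1 was then found in 30.8% of aged CA and 18.6% of young CA microglia, against 6.94% in aged sham and 7.34% in young sham. Before thinning the shares were 80.3% and 62.3% in the CA libraries, against 23.8% and 32.1% in the sham libraries. Mt2 was found in 5.11% of aged CA and 1.58% of young CA microglia after thinning, against 0.108% and 0.227% in aged and young sham. Free RNA can give UMIs in cells that do not express a gene, and no class here is known to lack Mt1. In T cells, which the gate separates from microglia, 5.61% of thinned aged CA T cells held an Mt1 UMI (6 of 107 cells) and 0.559% of aged sham T cells (1 of 179), at median depths of 8733 and 8263 UMIs. The young CA and young sham libraries had 22 and 44 T cells, none with a thinned Mt1 UMI. The part of free RNA in either share was not tested.

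**Figure D2:**
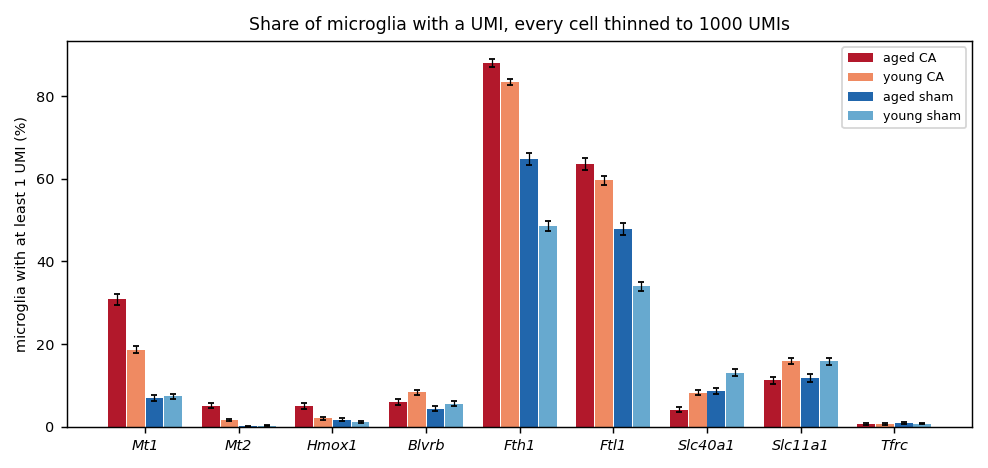
Share of microglia with at least 1 UMI of each gene (percent) after every cell was thinned to 1000 UMIs, in aged CA, young CA, aged sham and young sham, with exact binomial 95% intervals. Fth1 was found in 88.0% and 83.4% of aged and young CA cells, against 64.8% in aged sham and 48.6% in young sham, and Slc40a1 was least frequent in aged CA at 4.11%.

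Hmox1, which encodes the inducible haem oxygenase, stood at 56.1 CPM in aged CA and 27.9 CPM in young CA microglia, against 17.8 CPM in aged sham and 12.1 CPM in young sham. The ratio was 3.15 in aged (2.87 to 3.45) and 2.31 in young (2.12 to 2.52). Blvrb, which encodes a reductase of biliverdin and flavins, stood at 61.0 and 86.9 CPM in aged and young CA, against 54.2 and 66.7 CPM in aged and young sham. Its ratios of 1.13 in aged (1.06 to 1.19) and 1.30 in young (1.25 to 1.36) did not reach 2-fold. Haemoglobin genes made up 2.51 and 1.10 CPM of all kept aged and young CA barcodes, against 27.7 and 3.09 CPM in aged and young sham. With 10 CPM added to both levels the young Hmox1 ratio was 1.72 and was not called.

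Fth1 stood at 4881 CPM in aged CA and 3878 CPM in young CA microglia, against 1549.5 CPM in aged sham and 1081 CPM in young sham. Its ratio was 3.15 in aged (3.12 to 3.18) and 3.59 in young (3.56 to 3.62). Ftl1 stood at 1694 CPM in aged CA and 1759 CPM in young CA, against 869 CPM in aged sham and 644 CPM in young sham. The young ratio was 2.73 (2.70 to 2.76), and the aged ratio of 1.95 (1.92 to 1.98) missed the 2-fold limit. With young sham in place of aged sham it was 2.63, and it also passed the limit under TMM scaling (2.14), with totals that leave out mitochondrial, ribosomal, haemoglobin and member genes (2.10) and with Leiden clusters (2.03). Both ferritin genes were also higher in aged sham than in young sham microglia, by 1.43-fold for Fth1 (1.42 to 1.45) and 1.35-fold for Ftl1 (1.33 to 1.37). Monocyte marker RNA was also higher in CA than in sham at both ages. Its 8 markers summed to 67.1 and 222 CPM in aged and young CA microglia, against 24.6 and 12.3 CPM in aged and young sham microglia. All 8 were detected in each. Between the CA libraries the sum was lower in aged CA, where Fth1 was higher. The same markers summed to 8588 and 10645 CPM in aged and young CA monocytes. Its part in the ferritin result was not tested.

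Slc40a1 moved the other way. It stood at 38.9 CPM in aged CA and 77.9 CPM in young CA microglia, against 110.1 CPM in aged sham and 159.9 CPM in young sham. CA microglia held 0.354 of the sham level in aged (0.334 to 0.374) and 0.487 in young (0.472 to 0.503). The young ratio lies near the 2-fold limit and was not called under TMM scaling (0.552), with the smaller totals named for Ftl1 (0.520), as a mean over cells (0.588) or with 10 CPM added (0.517). Microglial identity markers were lower in the same libraries: the sum of the 12 markers was 9883 against 20362 CPM in aged CA and aged sham, and 15054 against 24183 CPM in young CA and young sham. Their part in the Slc40a1 result was not tested, and fewer UMIs of a gene per cell and other RNA rising cannot be told apart in CPM.

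Slc11a1 and Tfrc were nearly level between CA and sham. Slc11a1 stood at 125 and 167 CPM in aged and young CA microglia, against 121 and 169 CPM in aged and young sham, with ratios of 1.03 in aged (0.992 to 1.08) and 0.988 in young (0.963 to 1.01). Tfrc was scarce, at 7.19 and 7.58 CPM in aged and young CA, against 7.80 and 9.46 CPM in aged and young sham. Its ratio was 0.923 in aged (0.783 to 1.09) and 0.801 in young (0.714 to 0.899).

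Between the ages, 2 of 9 members were called higher and 1 lower in aged CA than in young CA microglia, where 7.52% of genes were called higher and 6.58% lower. Mt2 was 3.22-fold higher (3.04 to 3.42) and Hmox1 2.01-fold higher (1.90 to 2.12), while Slc40a1 stood at 0.4998 of the young CA level (0.475 to 0.525). Hmox1 and Slc40a1 lie at the limit, and neither was called among microglia of at least 5000 UMIs, where their ratios were 1.98 and 0.505. Mt1 was 1.69-fold higher in aged CA (1.66 to 1.72) and was not called. In sham mice 0 of 9 members were called higher and 1 lower in aged than in young microglia, where 11.2% of genes were called higher and 1.42% lower. The 1 was Mt2, at 0.401 of the young sham level (0.289 to 0.547), and it was not called as a mean over cells (0.549) or with 10 CPM added (0.829). Slc40a1 stood at 0.689 (0.662 to 0.716) and Slc11a1 at 0.717 (0.690 to 0.744) of their young sham levels. Whether CA acted differently at the 2 ages could not be tested with 1 library a group.

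**Figure D3:**
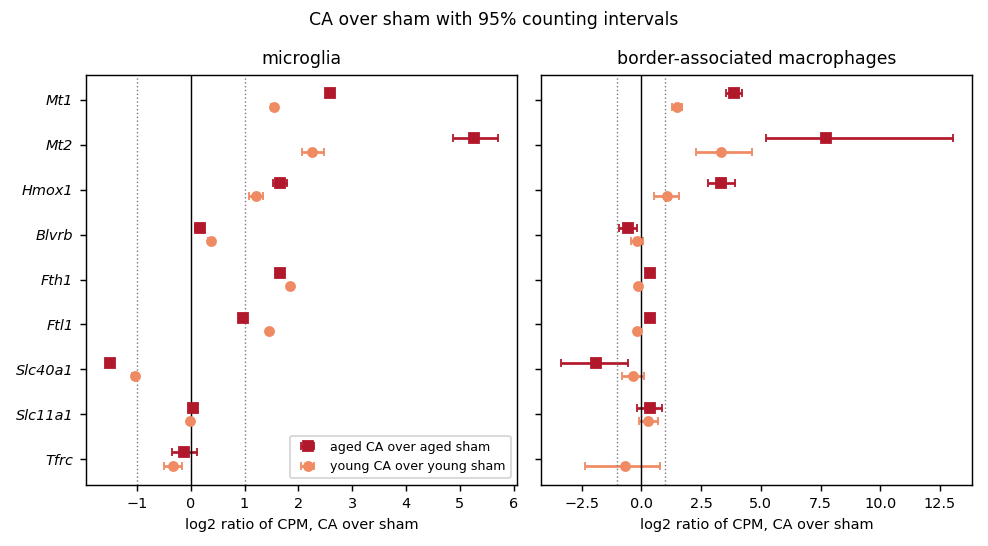
Log2 ratio of CA over sham for each gene in microglia (left) and border-associated macrophages (right), in aged mice (squares) and young mice (circles), with exact 95% counting intervals. Dotted lines mark 2-fold. Mt1, Mt2 and Hmox1 lie beyond the right-hand line in both classes and ages, and the ferritin genes do so only in microglia, Ftl1 there in young mice only. Tfrc in aged border-associated macrophages had under 20 UMIs and is not drawn.

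Border-associated macrophages line the vessels and coverings of the brain and are known for taking up haemoglobin through the receptor CD163. The gate found 71 and 66 such cells in aged and young CA, against 48 and 92 in aged and young sham, and all 9 of their markers were detected in each library. Mt1, Mt2 and Hmox1 were again higher after CA at both ages, and Fth1 and Ftl1 did not reach 2-fold. In the young comparison 3 of 9 members were called higher and 0 lower, where 3.92% of genes were called higher and 5.53% lower. In the aged comparison 3 of 8 members with enough UMIs were called higher and 1 lower, where 9.33% were called higher and 11.5% lower. Microglial marker RNA in this class summed to 1337 and 3412 CPM in aged and young CA, against 4422 and 5248 CPM in aged and young sham, and its part in these results was not tested.

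Mt1 stood at 2482 CPM in aged CA and 1028 CPM in young CA border-associated macrophages, against 169 CPM in aged sham and 367 CPM in young sham. The ratio was 14.7 in aged (11.7 to 18.7) and 2.80 in young (2.43 to 3.23), and 6.76 for aged CA with young sham in place of aged sham. Mt2 stood at 453 and 98.3 CPM in aged and young CA, against 2.14 and 9.63 CPM in aged and young sham. The aged sham level is 1 UMI, so the ratio of 212 has an interval of 37.7 to 8399, and with young sham in its place it was 47.0. The young ratio was 10.2 (4.84 to 24.8). An Mt1 UMI was present in 70 of 71 aged CA and 58 of 66 young CA cells, against 31 of 48 cells in aged sham and 75 of 92 in young sham.

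Hmox1 stood at 629 CPM in aged CA and 140.4 CPM in young CA border-associated macrophages, against 62.0 CPM in aged sham and 67.4 CPM in young sham, a ratio of 10.1 in aged (6.96 to 15.4) and 2.08 in young (1.46 to 2.98). The young ratio lies near the 2-fold limit and was not called as a mean over cells (1.69) or with 10 CPM added (1.94). A single cell held 75.5% of the 400 Hmox1 UMIs in aged CA. Without the cell with the most Hmox1 UMIs in each library the levels were 159.7 CPM in aged CA and 132 CPM in young CA, against 55.7 CPM in aged sham and 62.1 CPM in young sham, and the aged ratio was 2.87. The ratio of aged CA to young CA was 4.48 with that cell (3.52 to 5.77) and 1.21 without. Such concentration was less marked for Mt1, whose top cell held 11.5% of the aged CA UMIs.

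Ferritin differed from microglia in this class. Fth1 stood at 5721 and 5016 CPM in aged and young CA, against 4401 and 5494 CPM in aged and young sham, and Ftl1 at 4025 and 3514 CPM, against 3099 and 3981 CPM. The ratio was 1.30 for each in aged mice (1.23 to 1.37 for Fth1 and 1.22 to 1.39 for Ftl1). In young mice it was 0.913 for Fth1 (0.871 to 0.957) and 0.883 for Ftl1 (0.835 to 0.933). Blvrb stood at 178 and 376 CPM in aged and young CA, against 263 and 427 CPM in aged and young sham, and its aged ratio was 0.676 (0.519 to 0.880), or 0.416 with young sham in place of aged sham. Slc40a1 stood at 11.01 and 111 CPM in aged and young CA, against 40.6 and 139.7 CPM in aged and young sham. The aged CA value is 7 UMIs and the aged sham value 19, with a ratio of 0.271 (0.0963 to 0.673), and 0.0788 with young sham in place of aged sham. In the sham libraries alone, 0 of 8 members were called higher and 2 lower in aged than in young cells, where 4.49% of genes were called higher and 5.97% lower. These were Mt1 at 0.460 (0.354 to 0.591) and Slc40a1 at 0.291 (0.169 to 0.475). Between the CA libraries 3 of 8 were called higher and 2 lower in aged, where 5.54% were called higher and 8.19% lower, and the 2 were Slc40a1 at 0.0996 (0.0385 to 0.217) and Blvrb at 0.473 (0.373 to 0.597), which was not called with the smaller totals (0.506).

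**Figure D4:**
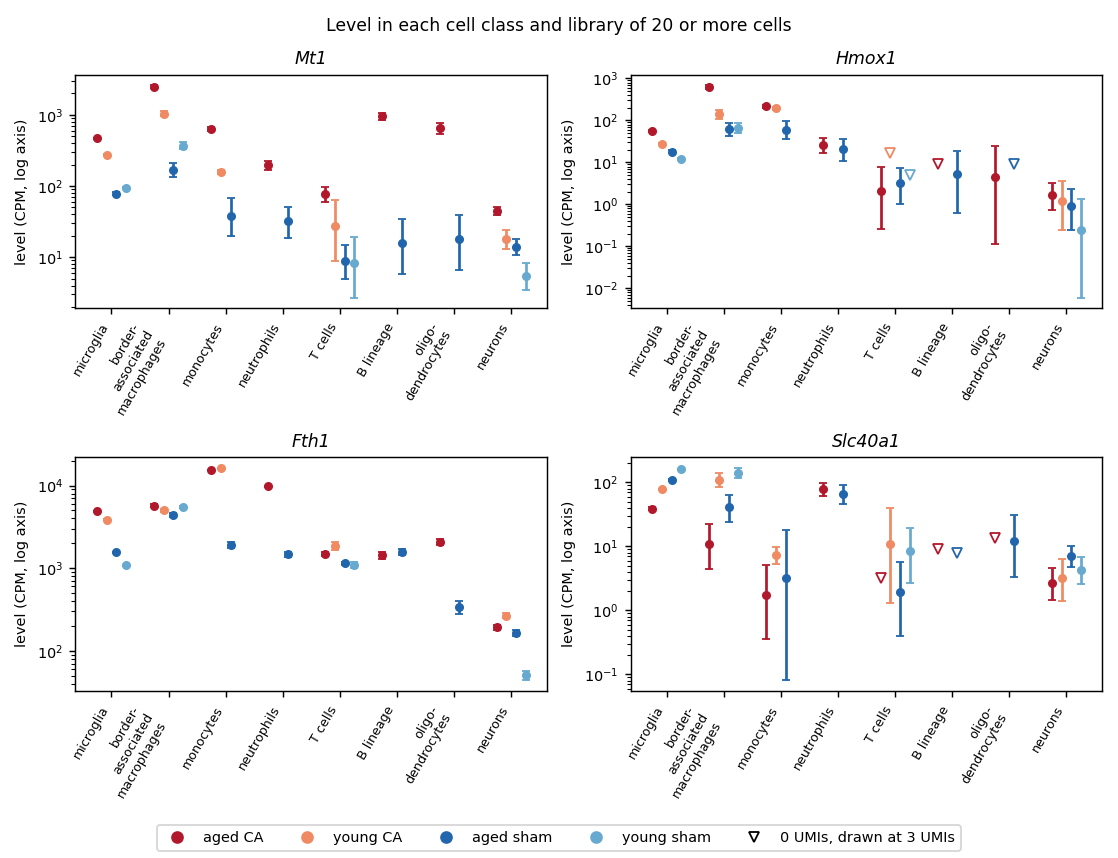
Level of Mt1, Hmox1, Fth1 and Slc40a1 (CPM, log axis) in 8 cell classes, for each library with at least 20 cells of the class, with exact Poisson 95% intervals. Open triangles mark classes with 0 UMIs, drawn at the level of 3 UMIs. Mt1 was higher in aged CA than in aged sham in all 8 classes, Hmox1 was near 0 in T cells, B lineage cells and neurons, and Slc40a1 was high in microglia, border-associated macrophages and neutrophils.

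Across classes, the order of levels was taken over the median of the libraries with at least 20 cells. Mt1 was highest in border-associated macrophages (median 698 CPM, range 169 to 2482), but its range overlapped those of B lineage cells (15.9 to 949.6), oligodendrocytes (18.0 to 643), microglia (78.0 to 468) and monocytes (38.3 to 628). T cells (8.37 to 76.5) and neurons (5.50 to 44.9) came last. Hmox1 was highest in monocytes (60.7 to 216 CPM) and border-associated macrophages (62.0 to 629), whose ranges overlap. Neutrophils (21.3 to 26.0) and microglia (12.1 to 56.1) followed, and T cells, B lineage cells, neurons and oligodendrocytes were at 5.30 CPM or less. Blvrb was highest in border-associated macrophages, at 178 to 427 CPM with no overlap with any other class.

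Fth1 was highest in monocytes after CA, at 15435 CPM in aged and 16199 CPM in young, and lowest in neurons (50.4 to 266 CPM). Ftl1 likewise was highest in monocytes (3395 to 8864 CPM) and lowest in neurons (17.5 to 77.0), and border-associated macrophages (3099 to 4025) overlapped the monocytes. Slc40a1 had overlapping ranges in microglia (38.9 to 159.9 CPM), border-associated macrophages (11.01 to 139.7) and neutrophils (65.6 to 78.1), while monocytes held 1.76 to 7.31 CPM. Microglia had the highest median of the 3, but border-associated macrophages did when cells were thinned to 1000 UMIs. In young CA border-associated macrophages stood above microglia, at 111 against 77.9 CPM, and in aged CA neutrophils did, at 78.1 against 38.9 CPM. Slc11a1 had overlapping ranges in microglia (121 to 169) and border-associated macrophages (109 to 179), and monocytes reached 145 CPM after aged CA. Tfrc and Mt2 had their highest medians outside the macrophage classes. Tfrc stood at 6.07 and 84.8 CPM in aged CA and aged sham B lineage cells and at 34.9 to 50.1 CPM in neurons, against 7.19 to 9.46 CPM in microglia. Mt2 stood at 200.2 CPM in aged CA and 0 CPM in aged sham B lineage cells and at 109 and 0 CPM in oligodendrocytes of the same libraries, and its range in border-associated macrophages was 2.14 to 453 CPM. With Leiden clusters, which held no named border-associated macrophages, the highest median was in monocytes for Mt1, Mt2 and Slc11a1, in B lineage cells for Blvrb and in neurons for Tfrc.

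Monocytes or monocyte-derived macrophages, which enter the brain from blood, numbered 63 in aged CA and 287 in young CA, against 22 in aged sham, while the 11 cells of young sham were too few to set a level. In the aged comparison 5 of 7 members with enough UMIs were called higher and 0 lower, where 12% of genes were called higher and 14.5% lower. Fth1 stood at 15435 CPM in aged CA against 1887 CPM in aged sham, a ratio of 8.18 (7.54 to 8.89). Mt1 stood at 628 against 38.3 CPM (16.4-fold, 9.34 to 31.8), Hmox1 at 216 against 60.7 CPM (3.55-fold, 2.24 to 5.97) and Slc11a1 at 145 against 57.5 CPM (2.51-fold, 1.56 to 4.31). Mt2 had 37 UMIs in aged CA and 0 in aged sham, at least 2.27-fold higher against a floor of 3 UMIs. Between the CA libraries 2 of 9 were called higher and 2 lower in aged, where 7.55% were called higher and 12.4% lower. Mt1 was 4.02-fold (3.67 to 4.40) and Mt2 7.61-fold higher (4.13 to 14.7), Blvrb stood at 0.470 (0.374 to 0.584) and Slc40a1 at 0.241 (0.0477 to 0.755, on 3 UMIs against 41).

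Neutrophils, T cells, B lineage cells, oligodendrocytes and neurons also held more Mt1 in aged CA than in aged sham. Mt1 stood at 195 against 31.9 CPM in neutrophils (6.10-fold, 3.75 to 10.5), 76.5 against 8.96 CPM in T cells (8.55-fold, 4.78 to 16.4) and 44.9 against 13.9 CPM in neurons (3.22-fold, 2.41 to 4.36). Microglial marker RNA was present in these classes: the 12 microglial markers summed to 1597, 495 and 392 CPM in aged CA neutrophils, T cells and neurons, against 2937, 1293 and 983 CPM in the same classes of aged sham. The sum was lower in aged CA in each, but these 12 markers were also lower in aged CA than in aged sham microglia themselves. The sum thus does not compare the amount of microglial RNA between the libraries. Mt1 in microglia was 6.00-fold higher in aged CA, and the part of free Mt1 RNA was not tested. In B lineage cells Mt1 stood at 949.6 CPM in aged CA against 15.9 CPM in aged sham, a ratio of 59.8 (27.1 to 164), above the 468 CPM of microglia in the same library. It came from 16 of 38 cells, and 1 cell held 50.5% of the UMIs. Without the top cell of each library the levels were 484 and 8.10 CPM. In oligodendrocytes 1 cell held 66.9% of the 142 Mt1 UMIs of aged CA, and without it the level was 226 CPM, against 12.1 CPM in aged sham.

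Some members moved in 1 of these classes and not in microglia. In B lineage cells 2 of 6 members were called higher and 2 lower in aged CA, where 6.93% of genes were called higher and 18.0% lower. Tfrc there stood at 6.07 CPM in aged CA against 84.8 CPM in aged sham (2 UMIs against 32, ratio 0.0716, 0.00831 to 0.281), and Blvrb at 36.4 against 151 CPM (ratio 0.241, 0.118 to 0.455). In T cells 2 of 6 members were called higher and 0 lower, where 5.84% of genes were called higher and 12.5% lower, and besides Mt1 this was Tfrc at 23.4 against 11.5 CPM (22 UMIs against 18, ratio 2.03, 1.04 to 4.02). Tfrc in aged sham T cells was 0.491 of the 23.4 CPM of young sham T cells (0.231 to 1.07). It was the 1 of 4 members called lower between the sham libraries, and 0 were called higher, where 6.21% of genes were called lower and 7.07% higher. In young CA T cells 0 of 2 members were called in either direction, where 4.97% of genes were called higher and 13.2% lower. Between the CA libraries 1 of 4, Mt1, was called higher in aged T cells and 0 lower, where 14.3% were called higher and 9.34% lower.

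In neutrophils 3 of 6 members were called higher and 0 lower, where 11.7% were called higher and 10.2% lower. Besides Mt1, Fth1 stood at 9777 CPM in aged CA against 1477 CPM in aged sham (6.62-fold, 6.17 to 7.12) and Slc11a1 at 112 against 55.0 CPM (2.04-fold, 1.35 to 3.16). Among neurons 4 of 7 members were called higher in young CA than in young sham, and 0 lower, where 7.06% of genes were called higher and 3.16% lower. Fth1 there stood at 266 CPM in young CA against 50.4 CPM in young sham (5.27-fold, 4.51 to 6.19), and 1 cell held 38.8% of the young CA UMIs. Aged sham neurons also held more Fth1 than young sham neurons, at 165 CPM (3.26-fold, 2.79 to 3.82). The neurons of these libraries were unlike in depth, with a median of 25314 UMIs for young CA cells and 4943 for aged sham cells, against 33628 for those of young sham. Microglial markers summed to 599 CPM in young CA and 983 CPM in aged sham neurons, against 501 CPM in young sham neurons, and the part of either in these results was not tested. In that comparison 3 of 7 members (Mt1, Fth1 and Ftl1) were called higher and 0 lower, where 7.65% of genes were called higher and 2.21% lower. In aged CA neurons 2 of 8 members, both metallothioneins, were called higher than in aged sham and 1, Slc40a1, lower, where 7.08% were called higher and 6.78% lower. Between the CA libraries 1 of 8, Mt1, was called higher in aged neurons and 0 lower, where 6.03% were called higher and 4.56% lower. In aged CA oligodendrocytes 4 of 4 members with enough UMIs were called higher and 0 lower, where 19.4% of genes were called higher and 10.4% lower, and 1 cell also held 68.2% of their Fth1 UMIs.

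Microglia were also split by state markers, with a cell counted in a state when at least 2 markers of the list were seen after thinning to 1000 UMIs. These are ranges and not types. In all, 1595 aged CA and 636 young CA microglia had 2 or more of the 6 markers led by the chemokines Ccl3 and Ccl4, and 1598 and 2233 had exactly 1. The interferon response list took in 648 aged CA and 938 young CA cells, the list led by Spp1 and Lpl 62 and 302, and the cycling list 10 and 312. Fth1 was higher in the Spp1 and Lpl cells than in the other microglia of the same library, at 7463 against 4835 CPM in aged CA and 7594 against 3677 CPM in young CA. Ftl1 stood at 2706 against 1676 CPM in aged CA and 3830.0 against 1647 CPM in young CA. Fth1 was also higher inside the interferon state, at 7246 against 4424 CPM in aged CA and 5015 against 3705 CPM in young CA. The same held for the Ccl3 and Ccl4 state, at 6375 against 4039 CPM in aged CA and 5599 against 3684 CPM in young CA. In the cycling state it stood at 3524 against 4888 CPM in aged CA and 4243 against 3851 CPM in young CA. Slc40a1 stood lower in the Spp1 and Lpl cells, at 11.01 against 39.5 CPM in aged CA and 34.3 against 80.3 CPM in young CA. In all 4 states Slc40a1 was lower than in the other microglia, in both CA libraries. The level in the Spp1 and Lpl cells rested on 10 UMIs in aged CA and 154 in young CA. Cycling cells stood close to it, at 11.8 CPM in aged CA (3 UMIs) and 36.6 CPM in young CA (210 UMIs).

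**Figure D5:**
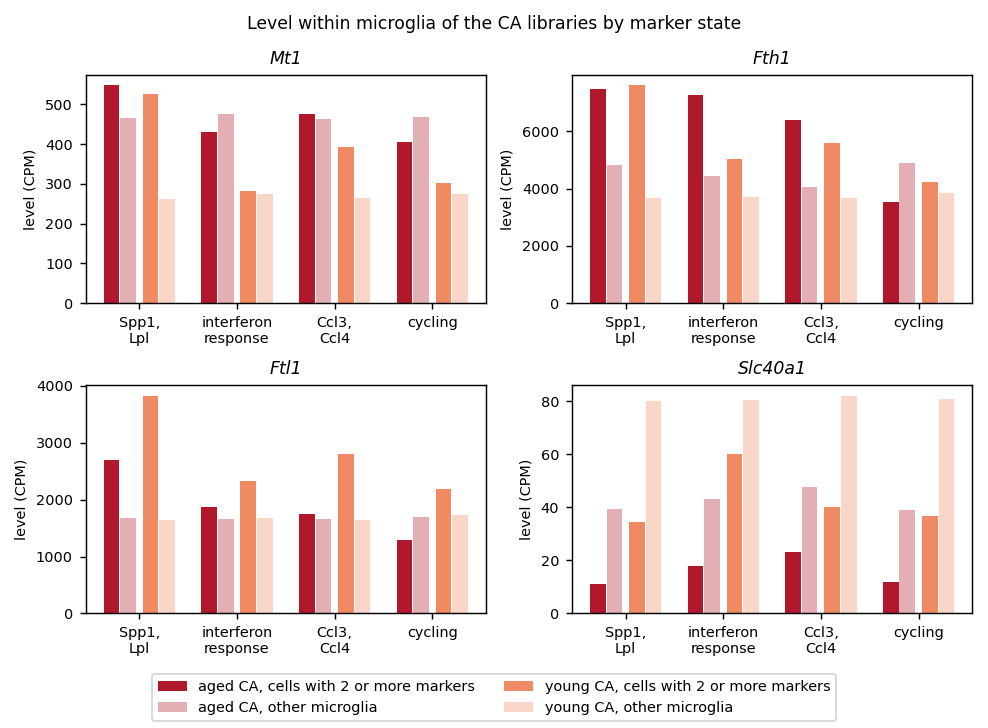
Level of Mt1, Fth1, Ftl1 and Slc40a1 (CPM, linear axis from 0) in microglia of the aged and young CA libraries, for cells with 2 or more markers of a state (full colour) and the other microglia of the same library (pale). Bars are sums over the cells of 1 library and carry no replicate error. Slc40a1 was lower inside every state, and Mt1 in young CA was highest in the Spp1 and Lpl cells, at 527 CPM against 263 CPM.

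Microglia outside the Ccl3 and Ccl4 state were also compared between CA and sham. Cells of the other lists were not taken out of them. They also kept the cells with exactly 1 marker, 1598 in aged CA and 2233 in young CA. The part of the states in the CA results was not tested. Among cells outside the Ccl3 and Ccl4 state Mt1 stood at 463 and 263 CPM in aged and young CA, against 73.5 and 93.1 CPM in aged and young sham. Slc40a1 stood at 47.8 and 82.1 CPM in the same cells, against 113 and 161 CPM. In aged CA Mt1 ran from 406 CPM in cycling cells, of which there were 10, to 547 CPM in the Spp1 and Lpl cells.

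The other genes of these pathways were described from 6 lists of 74 genes in all. The counts of called genes are to be read against the shares over all genes, which were 8.3% higher and 18.9% lower in aged CA microglia and 8.14% higher and 9.57% lower in young CA microglia. In aged CA the share called lower was under 18.9% in each of the 6 lists. With young sham in place of aged sham, 12.5% of genes were called higher and 14.0% lower in aged CA.

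Of metallothionein and zinc genes, 1 of 12 with enough UMIs was called higher and 2 lower in aged CA microglia, and 1 higher and 1 lower in young CA. Over all genes 8.3% were called higher and 18.9% lower in aged CA, and 8.14% higher and 9.57% lower in young CA. Slc39a14, a carrier that brings zinc and iron into cells, was higher at 57.7 against 15.1 CPM in aged (3.83-fold, 3.47 to 4.23) and 41.7 against 13.02 CPM in young (3.20-fold, 2.96 to 3.47). Slc39a10, another zinc importer, stood at 27.6 CPM in aged CA against 74.1 CPM in aged sham (0.372, 0.348 to 0.398), and was not called with young sham in its place (0.549). Mt3, the metallothionein best known from neurons and astrocytes, stood at 2.16 and 1.52 CPM in aged and young CA microglia, against 13.3 and 4.08 CPM in aged and young sham. The young ratio was 0.373 (0.299 to 0.463). The aged ratio was 0.162, and 0.530 (0.419 to 0.667) with young sham in place of aged sham, which was not called. The list then had 1 gene higher and 0 lower. The 7 neuron markers summed to 49.2 and 35.3 CPM in the CA microglia, against 144 and 51.9 CPM in the sham microglia, with none at 0, and their part in the Mt3 result was not tested.

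Of 9 haem uptake, transport and breakdown genes with enough UMIs, none was called in aged CA, and 2 were called higher and 1 lower in young CA, against 8.14% and 9.57% of all genes. Hebp1, a haem-binding protein, stood at 88.0 CPM in young CA against 40.0 CPM in young sham (2.20-fold, 2.10 to 2.31), and at 88.5 CPM in aged CA against 55.3 CPM in aged sham (1.60-fold, 1.51 to 1.69). Against young sham the aged CA ratio was 2.21 and was called. The other 2, Hp and Flvcr2, were under 1 CPM in both young libraries. Hp, the haptoglobin gene, stood at 1.07 CPM in aged CA, with a ratio of 0.696 to aged sham and 12.2 to young sham. Of 10 haem synthesis genes none was called in young CA and 1 was lower in aged CA, against 18.9% of all genes. That gene, Uros, stood at 3.37 against 11.7 CPM (0.288, 0.239 to 0.346). Against young sham 2 were lower in aged CA, Uros and Cpox, and Cpox stood at 0.421.

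Of 15 iron uptake, storage, release and export genes, 1 was called higher and 1 lower in aged CA, and none higher and 2 lower in young CA, where these 2, Ltf and Hamp, were under 1 CPM in both libraries. Over all genes 8.3% were higher and 18.9% lower in aged CA, and 9.57% lower in young CA. Slc11a2, an iron importer, stood at 40.0 CPM in aged CA against 19.3 CPM in aged sham (2.07-fold, 1.89 to 2.27), and was not called with young sham in its place (1.84). Ncoa4, which carries ferritin to its breakdown, stood at 24.5 and 34.2 CPM in aged and young CA, against 46.2 and 56.2 CPM in aged and young sham, with ratios of 0.530 (0.491 to 0.573) and 0.610 (0.580 to 0.641) that were not called. Against young sham the aged CA ratio was 0.436 and was called. Slc25a37, which brings iron into mitochondria, stood at 40.7 and 43.5 CPM in aged and young CA, against 74.8 and 82.9 CPM in aged and young sham, and its ratios of 0.544 and 0.525 were not called, while 0.491 for aged CA with young sham was. Ltf, a granule protein of neutrophils, stood at 0.214 CPM in aged CA against 6.54 CPM in aged sham microglia, and the 9 neutrophil markers moved with it, at 53.2 against 381 CPM with Ly6g at 0 in aged CA. Their part in the Ltf result was not tested, and with young sham in place of aged sham the Ltf ratio was 0.371 instead of 0.0328. Against young sham 1 gene of the list was higher and 3 lower. The 1 was Lcn2, which encodes an iron-trapping secreted protein of neutrophils and inflamed tissue. It stood at 8.68 CPM in aged CA against 0.841 CPM in young sham. In aged sham it stood at 9.62 CPM, and the ratio of aged CA to aged sham was 0.901 and was not called.

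Of the iron-sensing and transcription factor genes, none was called higher, and 1 of 10 was lower in aged CA and 2 of 11 in young CA, against 18.9% and 9.57% of all genes. Against young sham 2 of 11, Maf and Bmp6, were lower in aged CA, and Bmp6 was under 1 CPM in both libraries. Maf, a transcription factor of the macrophage lineage, stood at 249 CPM in aged CA against 930.3 CPM in aged sham (0.268, 0.262 to 0.274) and 440.2 CPM in young CA against 915 CPM in young sham (0.481, 0.475 to 0.488). Of 9 iron-sulphur cluster genes, 1 was called higher in aged CA, against 8.3% of all genes, and none in young CA. Glrx5, a mitochondrial glutaredoxin of that assembly, stood at 48.2 against 23.0 CPM in aged (2.10-fold, 1.93 to 2.28) and 35.2 against 18.6 CPM in young (1.90-fold, 1.77 to 2.04).

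The genes whose level was most like each member's were taken by Pearson's r of log2(CPM + 10) over 17 combinations of class and library with at least 50 cells, among 11593 genes. These points share libraries and depth, so r is a description. Fth1 and Ftl1 were each other's nearest genes, at r = 0.98. After them, Fth1 was most like Cebpb (0.97) and Atox1 (0.97). Mt1 was most like Zfand5 (0.94), Neu1 (0.93) and Rragc (0.93), Mt2 like Slc10a6 (0.93), and Hmox1 like Cdkn1a (0.94). Slc40a1 was most like Arap3 (0.95), Slc11a1 like Il13ra1 (0.99), Blvrb like Tmbim1 (0.97) and Tfrc like Spock2 (0.96).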

How the data were processed

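Raw UMI counts per gene and barcode were deposited for 4 libraries, and the submitters' processing notes name Cell Ranger 7.1.0 and mm10 (the GRCm38 assembly) for the authors' processing. Cell calling settings and annotation are not given in the sources used here. The libraries held 70924569 (aged CA), 115892682 (young CA), 44277472 (aged sham) and 72648041 (young sham) UMIs.

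Barcodes under 500 UMIs, under 200 genes or over 10% mitochondrial UMIs were removed. Scrublet's own threshold (scanpy 1.11.5) marked 0, 0, 1 and 0 barcodes in that order, so it had not worked, and the highest scores were removed at 0.8% per 1000 barcodes. A barcode took the class whose marker list had the highest UMI density relative to that class's typical cells, with at least 3 markers seen and a score of at least 0.2. It was called mixed when a second list scored over 0.5 of the first, and 105, 160, 508 and 86 barcodes lay near that limit, in the same order. No member or pathway gene was a marker.

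UMIs were summed per class and library, and classes with at least 20 cells were used. Intervals are exact Poisson for levels, exact conditional binomial for ratios and exact Clopper-Pearson for shares, computed with scipy 1.17.1. Thinning draws 1000 UMIs from each cell without replacement. The scripts were tested on simulated counts. Alternatives included TMM scaling (edgeR 4.0.16) and Leiden clusters in place of the gate. All members are named. From each pathway list up to 4 genes a comparison could be named, those with the largest log2 ratio in either direction. With 1 library a group, no p-value was computed. The members and lists were chosen with earlier results of these data known.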

Additional observations from a re-analysis of the deposited data

Results flagged for a closer look

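In border-associated macrophages the CA response of both ferritin genes pointed in opposite directions at the 2 ages, with counting intervals off 1 at each age. Fth1 was at 1.30 of its sham level in aged CA and 0.913 in young CA. Ftl1 was at 1.30 in aged CA and 0.883 in young CA. The difference between the ages was not tested, as each group was 1 library. With young sham in place of aged sham the aged ratios were 1.04 and 1.01.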

How the results depend on the processing

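No paired analysis was possible because each group was 1 library and no comparison comes from a test. Of the counts of called members, 171 values under the alternatives stayed within 1.5 times of the reported count and 19 did not, and no ratio that was called turned its direction. Of the ratios of single genes, 691 values stayed inside the counting interval of the reported ratio and 159 did not. For microglia these were 347 and 137, so the counting intervals do not cover the choice of processing. In microglia the count lower in young CA was 0 under TMM scaling, with totals that leave out mitochondrial, ribosomal, haemoglobin and member genes, as a mean over cells and with 10 CPM added. The count lower in aged sham against young sham was 0 as a mean over cells and with 10 CPM added. Between aged CA and young CA microglia the count higher was 1 with a mitochondrial limit of 20%, under TMM scaling, with 10 CPM added and among cells of at least 5000 UMIs. The count lower there was 0 with the smaller totals, with 10 CPM added, with Leiden clusters and among cells of at least 5000 UMIs. In border-associated macrophages the count lower in young CA was 1 as a mean over cells. The count lower in aged CA was 2 with no filter on low counts, 0 without the cell with most UMIs of each gene (which left Slc40a1 under 20 UMIs) and 2 with young sham in place of aged sham. Between aged and young CA the count lower was 1 with the smaller totals. The cause of these shifts was not tested. As a mean over cells the aged Mt2 ratio in microglia was 22.8. Among microglia of at least 5000 UMIs Mt1 stood at 6.04 of its sham level in aged CA and 2.77 in young CA, and Slc40a1 at 0.331 and 0.463. The limit of 5000 UMIs, the removal of the top cell and the use of young sham were chosen after seeing the data. Leiden clusters gave no value for border-associated macrophages, whose cluster stayed unnamed. Their aged Mt2 ratio had no value under the stricter gate and without the top cell, since aged sham then had 0 UMIs. Small classes limit what depth can show: Tfrc had 4 to 14 UMIs in border-associated macrophages.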
